A study of Mus musculus with 74 samples.

Results

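BMAL1, encoded by Arntl, pairs with CLOCK to form the activating arm of the circadian clock, and the pair binds E-box motifs, best known as CACGTG, at promoters and distal elements of its target genes. In adipose tissue the clock runs in adipocytes as well as in the vascular, stromal and immune cells around them. Open chromatin, mapped by ATAC-seq through the cutting of accessible DNA by a transposase, marks most sites where transcription factors sit, so BMAL1 peaks that fall outside it were described here on their own. The set holds 1342 of the 10368 peaks called for BMAL1 in mouse inguinal white fat (WAT). A peak belonged to it when its score was not among the 500 highest, when it lay more than 1000 bp from the nearest annotated transcription start site, and when it shared no base with any ATAC peak of white or brown adipocytes. The members were thus chosen by score, distance to a start site and ATAC overlap, and these values are given below as a description without a test.

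The 2 BMAL1 ChIP libraries came from minced inguinal fat of C57BL6J mice collected at zeitgeber time (ZT) 4, which is 4 h after lights on by the usual convention, and the labels call the cells white adipocytes although no cell sort is described for this assay. Genes and open chromatin were measured in Adiponectin-Cre:NuTRAP mice, in which Cre expressed from the adiponectin promoter tags the nuclei and ribosomes of adipocytes. ATAC-seq was run on sorted nuclei and RNA-seq on RNA from affinity-purified ribosomes, from brown fat (BAT) and inguinal WAT, at ZT1, ZT5, ZT9, ZT13, ZT17 and ZT21. Each depot and time had 3 libraries, except BAT RNA at ZT17 with 2, which made 17 BAT and 18 WAT RNA libraries and 18 ATAC libraries per depot. The labels give neither treatment nor age, and they do not say whether libraries of a group came from separate animals, so p-values measure only the spread between these libraries. The BMAL1 libraries held 29167659 and 29250608 tags, and the ATAC peak lists held 25050 WAT and 42572 BAT peaks of 150 bp, against 212 bp for a BMAL1 peak. Total RNA counts per library ranged between 4980147 and 46274438 for BAT and between 1301522 and 6481154 for WAT. Counts in ATAC peaks, whose number limits which regions could be called open, were 3959384 to 12811242 per BAT library and 1623006 to 5294923 per WAT library. In 3 WAT libraries more than 50% of the counts fell on 3 loci rich in ribosomal RNA reads (CT010467.1, Gm42418 and Lars2). Summed counts of 7 adipocyte markers, among them Adipoq, Plin1 and Fabp4, ran from 37835 to 58802 CPM (counts in a library scaled to 1000000) in BAT and from 6616 to 74228 CPM in WAT.

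Peak letters could be read only where a member overlay a start-site window of the RefSeq promoter table (GRCm38.p6, the same assembly as mm10), which covers 250 bases before to 50 after each start. Such overlap held for 31 members (2.31%), against 119 of 2884 other distal peaks that lay in open chromatin (4.13%). By the annotation deposited with the peaks, these members too lie more than 1000 bp from a start site. The palindrome CACGTG, which reads the same on both strands, was in 6 of the 35 windows under members (17.1%) and in 7.15% of all 32851 windows. CACGTT, searched on both strands, was in 3 of the 35 (8.57%, against 4.68% of all windows), and TGACTCA, the AP-1 motif, was also in 3 (8.57%, against 5.2%). TTGCGCAA and TGTTTAC were in none of the 35 windows, against 0.183% and 3.65% of all. These counts are of windows, which can reach outside the peak, and the 35 windows lie under only 31 members. No such share is given for windows under other BMAL1 peaks, so a motif excess in members was not tested. The next lines show the 3 members whose covered bases before the start hold CACGTG, in capitals, because in these the motif both lies inside the peak and precedes the start. Each is written 5′ to 3′ on the strand of the RefSeq gene named.
Ece1: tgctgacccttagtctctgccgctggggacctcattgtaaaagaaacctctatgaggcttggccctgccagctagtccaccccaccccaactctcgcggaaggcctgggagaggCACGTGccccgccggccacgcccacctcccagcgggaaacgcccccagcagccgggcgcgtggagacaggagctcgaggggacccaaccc
Gm40441: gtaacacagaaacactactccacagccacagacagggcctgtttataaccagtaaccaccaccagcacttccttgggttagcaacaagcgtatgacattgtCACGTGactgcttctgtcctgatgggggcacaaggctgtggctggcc
Gm34558: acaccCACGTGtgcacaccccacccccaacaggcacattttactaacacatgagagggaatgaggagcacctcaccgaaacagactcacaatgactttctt
The Ece1 run is chr4:137913354-137913557 on the + strand, inside intron 2 of 19 of Ece1, the gene of endothelin converting enzyme. Its peak had a score of 7.53 and library values of 8.57 and 6.5 scaled tags (tags per 10000000 in the library), and it lay 51223 bp from the annotated start and 13647 bp from the nearest ATAC peak. The Gm40441 run is chr12:72844429-72844576 on the - strand, in intergenic sequence 73295 bp from the start of 4930447C04Rik, with library values of 6.51 and 5.13. The Gm34558 run is chr13:59196512-59196612 on the - strand, 347833 bp from the start of Agtpbp1, with library values of 4.46 and 5.13. All 3 peaks had similar tag numbers in both libraries.

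Members were weak peaks. Their scores ran from 2.91 to 13.5 with a median of 4.45, against medians of 5.48 for the other distal peaks in open chromatin, 6.5 for the 5640 other peaks within 1000 bp of a start site and 18.7 for the 500 highest. A typical member rested on 13 tags in each library. The highest member scored 13.5, and the 20 distal peaks outside open chromatin that were among the 500 scored 15.1 or more. The nearest member to a start site lay 1031 bp away and the farthest peak within the limit 997 bp. Members came as close as 1 bp to an ATAC peak, and distal peaks counted as open shared as few as 2 bp with one.

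The 2 BMAL1 libraries gave members the same level overall and ordered them loosely. Median values were 4.46 and 4.44 scaled tags (mean 4.45 ± 0.014, SD, n = 2). Library 1 was higher for 706 members and library 2 for 636. The values differed by more than 2-fold at 222 members (16.5%), against 10.3% of the other distal peaks in open chromatin, 8.37% of the start-site peaks and 0.8% of the 500 highest. The SD of the log2 ratio between libraries was 0.73 in the set and 0.62, 0.57 and 0.31 in those classes. Relative to the variance that counting alone gives, the spread was 1.45 times as large in the set and 1.32 to 1.36 times in the others. Across the 1342 members, the log2 values of the libraries correlated with a Pearson r of 0.187, against 0.447 over the other distal peaks and 0.869 over the 500 highest. These correlations describe peaks that share the same 2 libraries, and the score limits narrow the range of values in the set.

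**Figure D1:**
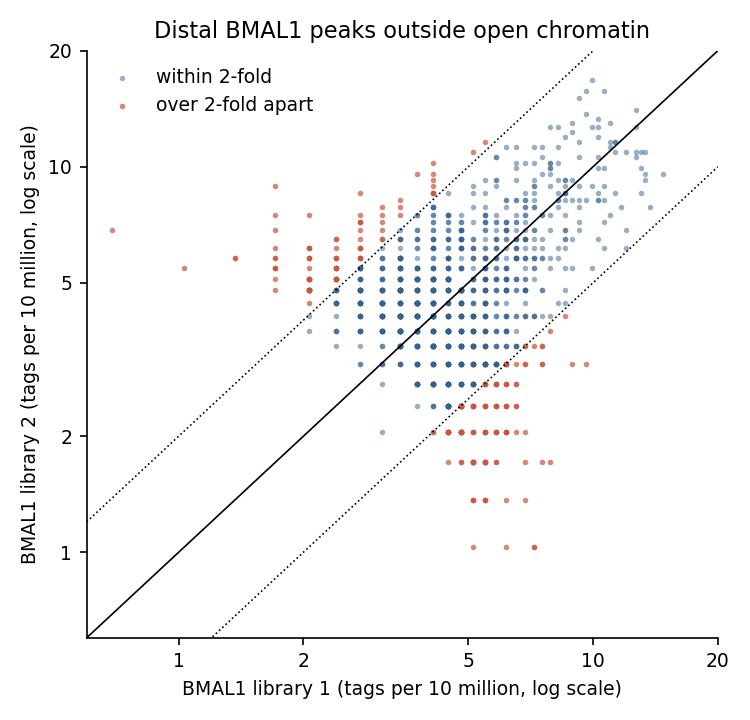
Each point is a member, with its scaled tags in BMAL1 library 1 on the x axis and in library 2 on the y axis, both on log scales. The solid line marks equal values and the dotted lines a 2-fold difference. The 222 members outside the dotted lines, in red, lie on both sides, and members with more tags lie closer to the solid line.

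The libraries lay closer together at higher scores inside the set. Of the 439 members in the lowest score band (2.91 to 3.94), 26% differed by more than 2-fold between libraries, and 6.12% did so among the 327 in the highest band (5.65 to 13.5). The median distance to an ATAC peak was 19925 bp in the lowest band and 3840 bp in the highest. The median distance to a start site was 36149 bp in the lowest and 17525 bp in the highest. CpG islands covered 0.683% of the lowest band and 10.7% of the highest, and interspersed repeats 17.1% and 10.4%. The score helped to choose the members, so these trends are descriptions.

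**Figure D2:**
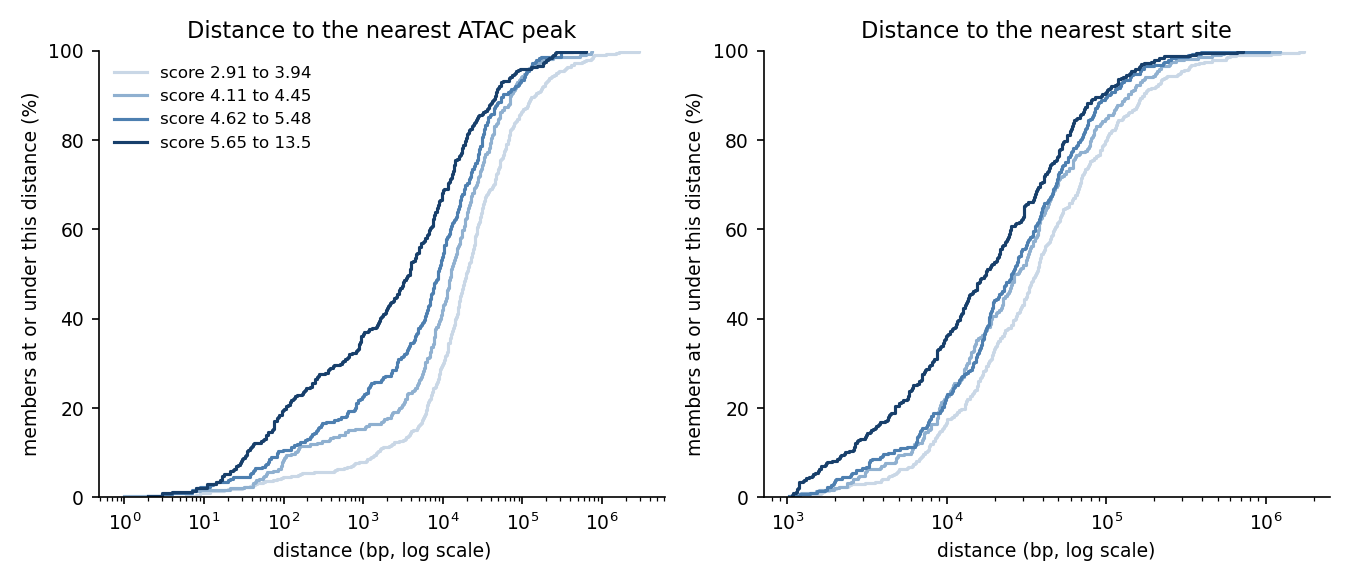
Both panels show, for 4 bands of peak score, the percentage of members at or under a distance in bp on a log scale, with distance to the nearest ATAC peak on the left and to the nearest start site on the right. The curve of the highest scores lies left of that of the lowest scores in both panels, with medians of 3840 against 19925 bp and 17525 against 36149 bp.

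Most members were intergenic or intronic, in nearly the shares seen for distal peaks in open chromatin. Intergenic sequence held 667 members (49.7%) and introns 613 (45.7%), against 50.5% and 43.8% of the other distal peaks. Exons held 22, the ends of transcripts 20, 3′ untranslated regions 17, non-coding genes 2 and a 5′ untranslated region 1. Interspersed repeats were annotated at 169 members (12.6%), against 8.91% of the other distal peaks. The LINE family L1 accounted for 42 of them (3.13%, against 1.49%) and the endogenous retroviruses ERVK for 23 (1.71%, against 0.902%). Simple or low-complexity repeats were annotated at 33 members (2.46%, against 0.728%). Read mapping in repeats depends on the aligner settings, and their part in these peaks was not tested.

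The set mixes peaks at the edge of open chromatin with peaks far from it. Members lay a median of 11516 bp from the nearest ATAC peak, 188 (14%) lay within 250 bp and 711 (53%) more than 10 kb away. The nearest ATAC peak was a BAT peak for 837 members, a WAT peak for 437 and equally near for 68, and BAT had the longer ATAC list. The distance to a start site had a median of 27289.5 bp, with 321 members (23.9%) within 10 kb and 191 (14.2%) more than 100 kb away. Members were mostly single: 11 had another BMAL1 peak within 1 kb and 193 (14.4%) within 10 kb, with a median distance to the nearest of 45472.5 bp.

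The 10 highest-scoring members had scores from 12.3 to 13.5. The first lay at chr12:104978739-104978951 in intron 1 of 16 of Syne3, the gene for the nuclear envelope protein nesprin-3, with 9.94 and 16.75 scaled tags and an ATAC peak 74 bp away. The second lay at chr12:85455175-85455387, 18620 bp before Fos, which encodes an AP-1 subunit, with 12.69 and 14.02 tags and an ATAC peak 2 bp away. A peak at chr8:34804898-34805110 lay 2606 bp before Dusp4, a phosphatase of MAP kinases, with 10.63 and 15.73 tags and 1974 bp from an ATAC peak. The peak 13504 bp from the start of Zc3h12a, an endoribonuclease that degrades inflammatory mRNAs, had 9.6 and 15.73 tags, and the stronger of 2 peaks near Parp14, an ADP-ribosyltransferase, had 9.26 and 15.04. Both libraries exceeded 9 tags at all of the 10. The peak near Rfx8, with 12.69 and 12.65 tags, lay on a simple repeat. The others were nearest 4930486F22Rik, Atp8b1, Slc1a7 and Lyrm1, each with a score of 12.3. Within 100 bp of an ATAC peak were those of Syne3, Fos, Slc1a7 and Lyrm1.

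The members shared 1230 nearest genes, of which 1128 had 1 member, 94 had 2, 6 had 3 and 2 had 4. With 4 members each, Irf2bp2, a transcriptional corepressor gene, and 1600014C23Rik led this count, and Irf2bp2 had 7 further BMAL1 peaks outside the set. The genes with 3 were Fos, Creb5, Plekhg1, Armc2, Ampd3 and Jag1. The 3 members near Jag1, which encodes a Notch ligand, lay in introns 21 and 4 and 546666 bp before the start. Fos, Plekhg1 and Ampd3 had no BMAL1 peak other than their members. Of the 1218 nearest genes found in the RNA table, 544 (44.7%) also had a BMAL1 peak outside the set, and 343 (28.2%) had such a peak within 1000 bp of the start site, against 10.55% of all 55487 genes in the table. Those 55487 include many genes with too few counts to test, so the 2 shares are not matched. No background was computed for the 544.

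Many nearest genes were too low in the RNA to test, though a smaller share than among all genes. The count filter of the WAT fit passed 728 of the 1218 (59.8%), against 64.8% of genes nearest the other distal peaks, 90.9% of those with start-site peaks and 87.1% of those nearest the 500 highest. In BAT the filter passed 653 (53.6%), against 62% of genes nearest the other distal peaks. Of all 55487 genes in the RNA data, 12703 passed in WAT and 12394 in BAT. The authors' WAT table lists 713 of the nearest genes, with a median of 3.54 TPM (transcript abundance corrected for length and depth) against 4.11 over all genes listed there, and their BAT table lists 728, with a median of 1.66 TPM against 2.21. Nearest is a distance only, and no file here ties a peak to a gene.

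Daily rhythm in WAT was called near members at the background share. A 24 h cosine curve fitted with edgeR's quasi-likelihood test was called (Benjamini-Hochberg adjusted p under 0.05) for 71 of 728 nearest genes (9.75%), where the background is 9.9% (1257 of 12703 genes). The shares were 11% for genes nearest the other distal peaks, 11% for start-site peaks and 10.9% for the 500 highest. At an unadjusted p under 0.05 there were 188 nearest genes (25.8%), against 26.9% of all genes. The median fitted peak-to-trough size was 0.94 on the log2 scale over the nearest genes and 0.98 over all. Fitted peaks lay between ZT0 and ZT12 for 36 of the 71 (50.7%), against 28.9% of the 1257. Leaving out single libraries gave 25 to 130 called, and leaving out the 3 WAT libraries rich in ribosomal RNA reads gave 135 (17.6%, against 19.7% of all genes).

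**Figure D3:**
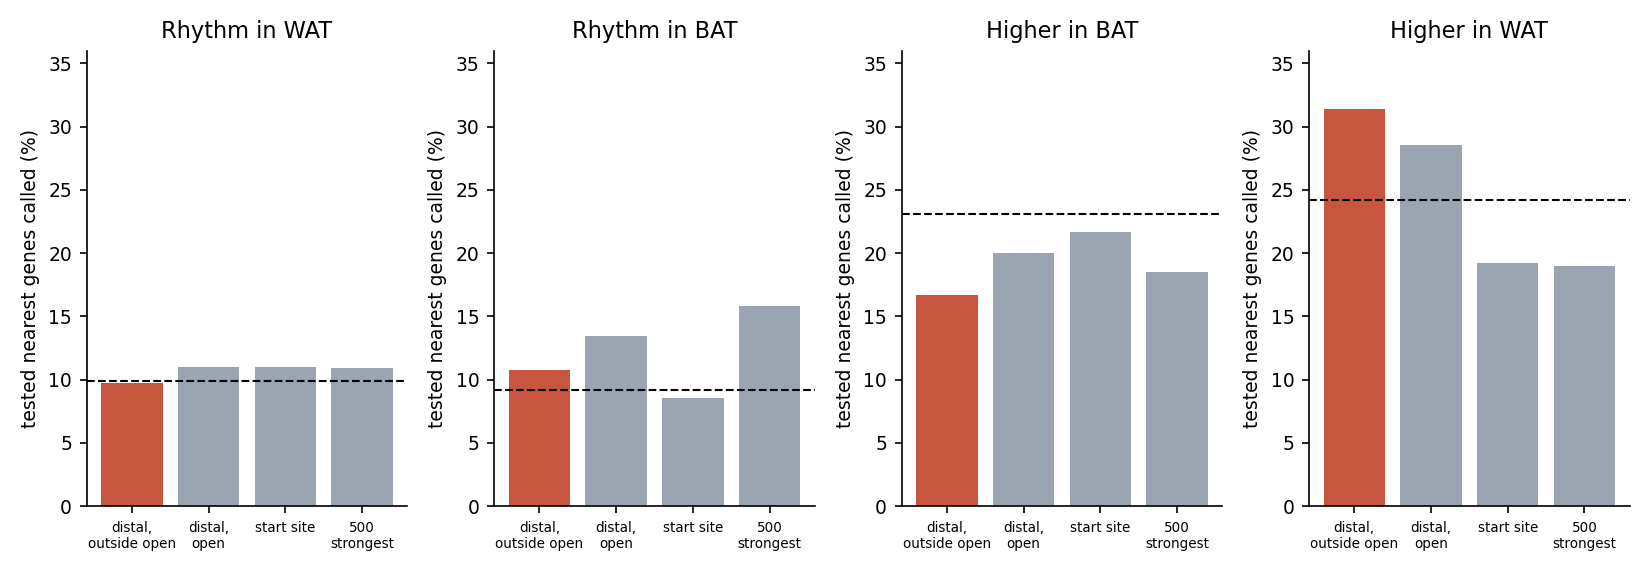
Bars show the percentage of tested nearest genes called, for members in red and for the 3 other peak classes in grey, in 4 panels for rhythm in WAT, rhythm in BAT, higher in BAT and higher in WAT. The dashed lines are the background over all genes tested, 9.9%, 9.17%, 23.1% and 24.2%. Members sit near the line for both rhythms, below it for BAT (16.7%) and above it for WAT (31.4%).

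Among these WAT genes the smallest p belonged to Gpam, which encodes the mitochondrial enzyme of the first step of triglyceride synthesis. Its CPM were 105, 257 and 119 at ZT1, 27.6, 28.2 and 44.7 at ZT5, 45.3, 30.98 and 53.2 at ZT9, 37.7, 21.01 and 27.7 at ZT13, 174, 136 and 137 at ZT17, and 110, 70.4 and 266 at ZT21. Gpam was thus high from ZT17 to ZT1 and low from ZT5 to ZT13, with no overlap between those times. Its fitted peak-to-trough size was 2.67 ± 0.44 (SE) on the log2 scale with a peak at ZT21.2 (edgeR adjusted p = 0.00291). The member nearest Gpam, on a TG simple repeat with 3.43 and 3.42 tags, lay 230004 bp from the start, and another BMAL1 peak outside the set has the same nearest gene.

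Ppp1r3b, which encodes a subunit that brings protein phosphatase 1 to glycogen, was called in both depots. In WAT it was at 4.63, 3.25 and 5.01 CPM at ZT1, between 5.87 and 12.7 CPM at ZT5, ZT9 and ZT13, at 26.7, 48.3 and 40.7 CPM at ZT17 and at 52.6, 17.99 and 29.9 CPM at ZT21. In BAT it was at 137, 93.0 and 94.6 CPM at ZT1, at 303 and 498 CPM at ZT17 and at 270, 418 and 396 CPM at ZT21. Both depots were low at ZT1 and high at ZT17 and ZT21. The sizes were 2.65 ± 0.46 with a peak at ZT18.1 in WAT (edgeR adjusted p = 0.0044) and 1.63 ± 0.29 with a peak at ZT17 in BAT (edgeR adjusted p = 0.00692). Its member, with 3.09 and 4.1 tags, lay 30338 bp from the start.

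The other 8 WAT genes of smallest p split by time. Map3k14, the kinase of the non-canonical NF-kappaB pathway, was highest at ZT5 with 7.54, 15.4 and 16.96 CPM and lowest at ZT17 with 0.363, 0.536 and 0.273 CPM (peak at ZT5.98, edgeR adjusted p = 0.00436). The authors' deposited table of JTK_CYCLE results lists Map3k14 as the 1 nearest gene in WAT with a q-value under 0.05, among 17 of 12541 genes listed. The homeobox gene Alx4 was at 10.3, 5.06 and 6.47 CPM at ZT1 and at 0.55, 0.673 and 0.488 CPM at ZT9 (edgeR adjusted p = 0.00476). Dynll2, a dynein light chain gene, was at 371, 281 and 434 CPM at ZT17 and 149, 156 and 119 CPM at ZT5, with a size of 1.46 ± 0.27. Its member, with 5.83 and 4.79 tags, lay 18703 bp from the start. Psmg1 (a proteasome assembly chaperone), Hpf1 (a cofactor of PARP enzymes), Lrrc14 and Sfxn1 (a mitochondrial serine transporter) had fitted peaks from ZT18.3 to ZT19.4. Abhd2, a lipid hydrolase gene, peaked at ZT9.92.

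In BAT, rhythm near members was also close to the background and below the shares of the other distal peaks and of the 500 highest. The fit called 70 of 653 nearest genes (10.7%), with a background of 9.17% (1136 of 12394). The shares were 13.5% for the other distal peaks, 8.58% for start-site peaks and 15.8% for the 500 highest. At an unadjusted p under 0.05 there were 197 (30.2%), against 32.5% of all genes. Fitted peaks lay between ZT0 and ZT12 for 43 of the 70 (61.4%), against 55.1% of the 1136. In the authors' deposited JTK_CYCLE table, 38 of 728 nearest genes listed (5.22%) had a q-value under 0.05, against 4.33% of all 14055. Leaving out single libraries gave 35 to 159 called. Over all genes tested in both depots, 137 were called in both, which is 11.9% of the 1156 WAT and 12.9% of the 1058 BAT calls. Near members 5 were called in both, 8.06% of 62 WAT and 7.25% of 69 BAT calls: Ppp1r3b, Pmepa1, Ugdh, Nup153 and D5Ertd579e. Pmepa1 and Ppp1r3b peaked within 2 h of each other across depots, whereas Nup153 peaked at ZT7.51 in WAT and ZT23.8 in BAT.

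Arntl, the gene of BMAL1 itself, had a member in intron 2 of 16 at chr7:113241908-113242120, 34549 bp from the start and 100 bp from an ATAC peak, with 4.8 and 3.42 tags. It has 2 other BMAL1 peaks outside the set. In BAT Arntl was at 10.7, 12.6 and 6.81 CPM at ZT1, 6.94, 5.91 and 3.98 CPM at ZT5, 0.857, 0 and 0 CPM at ZT9, 0.584, 0 and 0.642 CPM at ZT13, 2.48 and 1.34 CPM at ZT17, and 11.3, 6.17 and 10.4 CPM at ZT21. The libraries at ZT9 and ZT13 were all below those at the other times. The size was 4.92 ± 0.54 with a peak at ZT0.0548 (edgeR adjusted p = 0.000131). In WAT the Arntl fit gave 1.60 ± 0.89 (edgeR adjusted p = 0.439), with values from 0 to 7.64 CPM, and the difference between depots was not tested.

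Fbxo40, an F-box gene best known from muscle, had the smallest p in BAT. It was at 0.862, 0.94 and 1.31 CPM at ZT1 and at 7.94, 6.23 and 17.4 CPM at ZT13, with a size of 3.09 ± 0.34 and a peak at ZT13.2 (edgeR adjusted p = 0.000114). Its member, on an ERVL-MaLR repeat 85 bp from an ATAC peak, had 4.11 and 4.44 tags. Sik2, a salt-inducible kinase gene, was at 31.1, 49.8 and 42.0 CPM at ZT1 and at 20.1, 11.995 and 11.9 CPM at ZT9, and its fitted peak was at ZT23.7. The member near Sik2 lay on an L1 repeat 5623 bp before the start, with 3.77 and 3.08 tags. Trmt9b, a tRNA methyltransferase gene, peaked at ZT0.963 with a size of 1.48 ± 0.19. Ext1, a heparan sulfate polymerase gene with 2 members in intron 1, peaked at ZT6.61. Usp6nl (a Rab GTPase-activating protein), Kdm7a (a histone demethylase) and Coro1c (an actin-binding coronin) peaked at ZT9.99, ZT12 and ZT22.

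**Figure D4:**
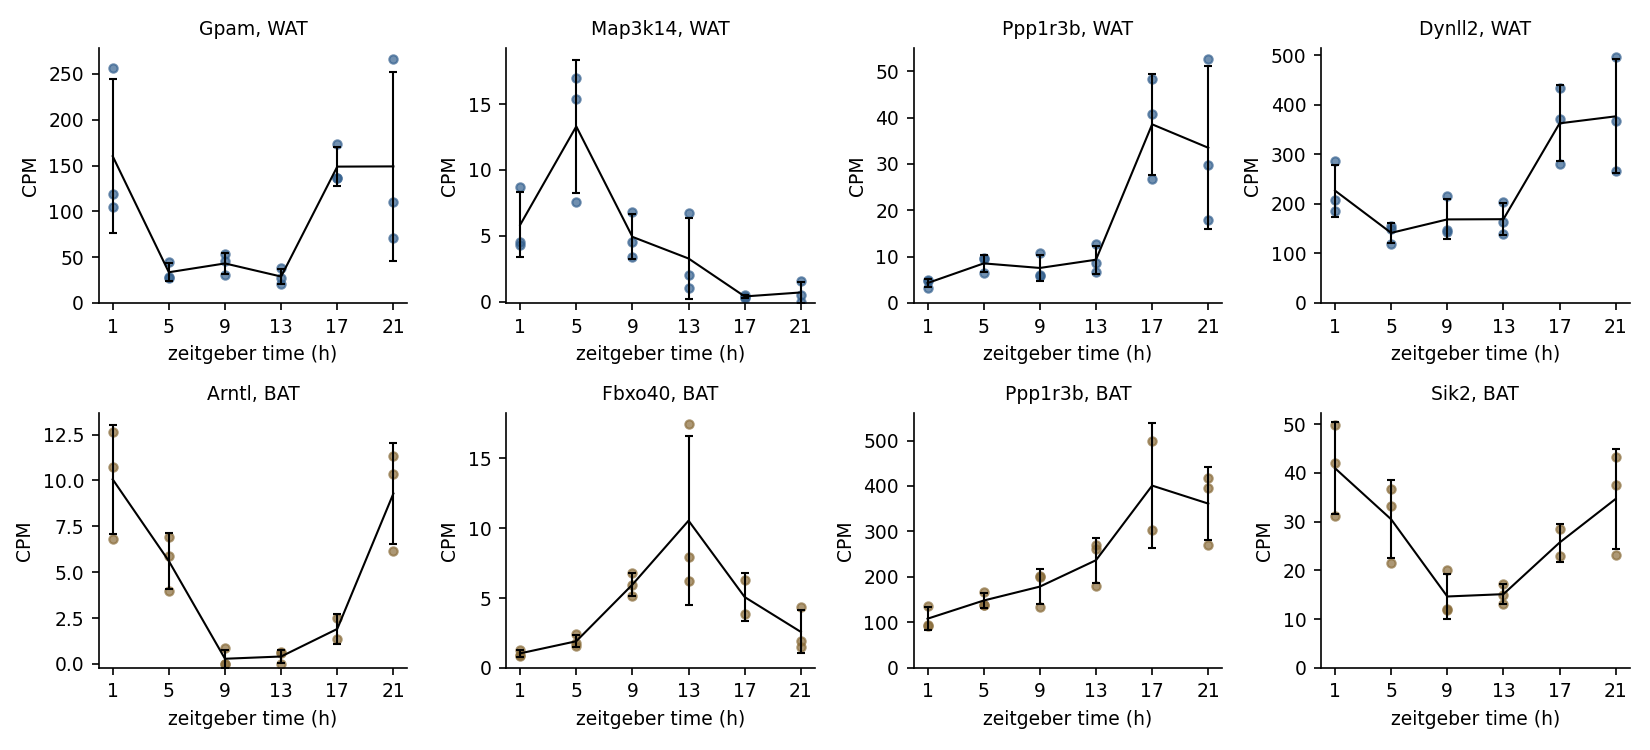
CPM of 7 nearest genes are plotted against zeitgeber time in h, with WAT in the upper row and BAT in the lower row, and Ppp1r3b in both. Points are libraries, and the line joins the means with SD bars (3 libraries per time, 2 for BAT at ZT17). Gpam, Ppp1r3b and Dynll2 are high at ZT17 and ZT21 in WAT, Map3k14 is high at ZT5, and in BAT Arntl is lowest at ZT9 and ZT13, where Fbxo40 is highest.

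Nearest genes leaned towards WAT when the depots were compared, and this lean was seen for members more than 10 kb from a start site. With time as a factor, 102 of 611 tested nearest genes (16.7%) were higher in BAT by at least 2-fold and 192 (31.4%) were higher in WAT (edgeR adjusted p under 0.05), where the background is 23.1% and 24.2% of 10999 genes. For members within 10 kb of a start site, 35 of 152 tested nearest genes (23%) were higher in BAT and 38 (25%) in WAT, near the background. Beyond 10 kb they were 69 (14.6%) and 159 (33.5%) of 474, and the difference between the 2 distances was not tested. Genes nearest the other distal peaks were at 20% and 28.5%, and those with start-site peaks at 21.6% and 19.2%. Without TMM scaling the split was 141 against 139 nearest genes, and 3640 against 1976 over all genes. The median difference, BAT minus WAT on the log2 scale, was -0.38 over the nearest genes and 0.04 over all. Without TMM scaling both medians moved up, to 0.03 and 0.43. The nearest genes lay lower than all genes by -0.41 with and -0.40 without it. Scaling shifts all genes of a library alike, so this gap could hardly change and is no check of the lean. The difference between the nearest genes and all genes was not tested.

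The counts in each direction differed with the distance of members from open chromatin, and the differences between distances were not tested. For members within 250 bp of an ATAC peak, 23 of 103 tested nearest genes (22.3%) were higher in BAT and 24 (23.3%) in WAT. Between 250 bp and 10 kb the shares were 18.5% and 30.5% of 249. Beyond 10 kb they were 12.1% and 35.3% of 289. Without TMM scaling the shares higher in BAT were 26.2%, 24.5% and 19.7%, against 33.1% of all genes, and those higher in WAT were 15.5%, 22.5% and 26%, against 18% of all genes, so in the nearer bands more genes were then higher in BAT. The medians did not follow the same order, at -0.45, -0.35 and -0.41. The filter passed 56.3%, 60% and 43.2% of the nearest genes in these bands.

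The 8 nearest genes with the largest differences towards WAT were chosen for the size of that difference, so their values are a description. Rac2, a small GTPase gene of blood cells, ran from 0 to 0.693 CPM in the 17 BAT libraries (median 0.085) and from 0.942 to 124 CPM in the 18 WAT libraries (median 34.5). It was near 0 in BAT and lay above every BAT library in each WAT library. Rac2, Cyfip2, Fmnl1, Dkk2 and Adgrl3 did not pass the count filter within BAT and entered the comparison through WAT, so no fold is given for them. Erg, an endothelial transcription factor gene, ran from 0.0821 to 1.39 CPM in BAT and from 3.07 to 85.7 CPM in WAT. Fmnl1, a formin gene of blood cells, had medians of 0.142 and 23.6 CPM, and Cyfip2, which encodes a subunit of the WAVE complex, had medians of 0 and 8.37 CPM. Dkk2 (a Wnt antagonist), Abhd2, Adgrl3 (a latrophilin) and Slfn2 complete the 8, with BAT medians of 0.143, 0.861, 0.185 and 0.475 CPM and WAT medians of 14.4, 58.6, 11.4 and 17.9 CPM. Of the 611 tested nearest genes, 49 (8.02%) were higher in every WAT library than in every BAT library, where the background is 6.51%. Ptprc, the pan-leukocyte gene for CD45, was chosen after its values were seen, with 0 to 0.425 CPM in BAT and 1.2 to 22.7 CPM in WAT. The member in intron 1 of 31 of Ptprc lay 186082 bp from an ATAC peak, and the members near Rac2 and Erg lay 24590 and 53169 bp from one. These members were weak, with 5.14 and 3.42 tags near Rac2, 5.49 and 1.71 near Erg and 4.11 and 7.18 in Ptprc.

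Marker genes of several other cell types were higher in WAT as well. Summed over 6 macrophage markers, levels were 8.94 to 25.8 CPM in BAT and 16.4 to 190 CPM in WAT, with 2 of 4 tested higher in WAT. The 5 endothelial markers summed to 5.88 to 71.6 CPM in BAT and 32.5 to 310 CPM in WAT, with 4 of 4 tested higher in WAT. The 7 fibroblast and preadipocyte markers summed to 7.84 to 74.7 CPM in BAT and 80 to 1379 CPM in WAT, with 5 of 5 tested higher in WAT. The 6 B and T lymphocyte markers summed to 0 to 0.925 CPM in BAT and 21.3 to 99.2 CPM in WAT. Only 1 of them was tested, and it was higher in WAT. The 4 mural and smooth muscle markers summed to 6.2 to 35.9 CPM in BAT and 8.59 to 123 CPM in WAT. All 3 tested were higher in WAT. The 4 Schwann and nerve markers summed to 496 to 1494 CPM in BAT and 29.5 to 349 CPM in WAT, with 2 of 3 tested higher in WAT and 1 higher in BAT. The 5 skeletal muscle markers summed to 25 to 603 CPM in BAT and 5.35 to 210 CPM in WAT, with 2 of 5 tested higher in BAT and 1 higher in WAT. Markers with a member nearby were Csf1r, Pecam1 and Flt1. In WAT against BAT, medians were 27.0 and 1.97 CPM for Pecam1 and 96.5 and 8.94 CPM for Flt1, and both were higher in WAT. Csf1r, at 11.2 and 7.53 CPM, did not reach 2-fold (log2 difference -0.51 ± 0.21). The pulldown of tagged adipocyte ribosomes is meant to leave the RNA of these cells out. Whether their RNA was carried over or came from adipocytes cannot be told apart here, nor can more cells of a type and more RNA per cell in bulk samples. The part of these cells in the nearest-gene result and in the ChIP peaks was not tested.

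The 8 nearest genes with the largest differences towards BAT were chosen in the same way. Uqcrfs1, the iron-sulfur subunit of respiratory complex III, ran from 1429 to 2586 CPM in BAT and from 110 to 431 CPM in WAT, and the depots differed by 3.07 ± 0.18 on the log2 scale (edgeR adjusted p = 1.02e-17). Cycs, which encodes cytochrome c and has near-identical pseudogenes that can share its reads, ran from 444 to 1238 CPM in BAT and 32.4 to 138 CPM in WAT. Ndufaf6 (an assembly factor of complex I), Mrm3 (a methyltransferase of mitochondrial ribosomal RNA) and Ccdc58 differed by 2.72, 2.65 and 2.65. Rab17, a small GTPase gene, differed by 4.65, Ppp1r3b by 3.71 and Clstn3, a calsyntenin gene, by 3.37. Every BAT library was above every WAT library for 49 of the 611 nearest genes (8.02%), where the background is 11.3%, and all of these 8, chosen for their size, are among them. The member near Cycs, with 6.86 and 6.84 tags, lay 20923 bp from the start, and that near Uqcrfs1, with 4.46 and 3.08 tags, lay 26091 bp before it.

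**Figure D5:**
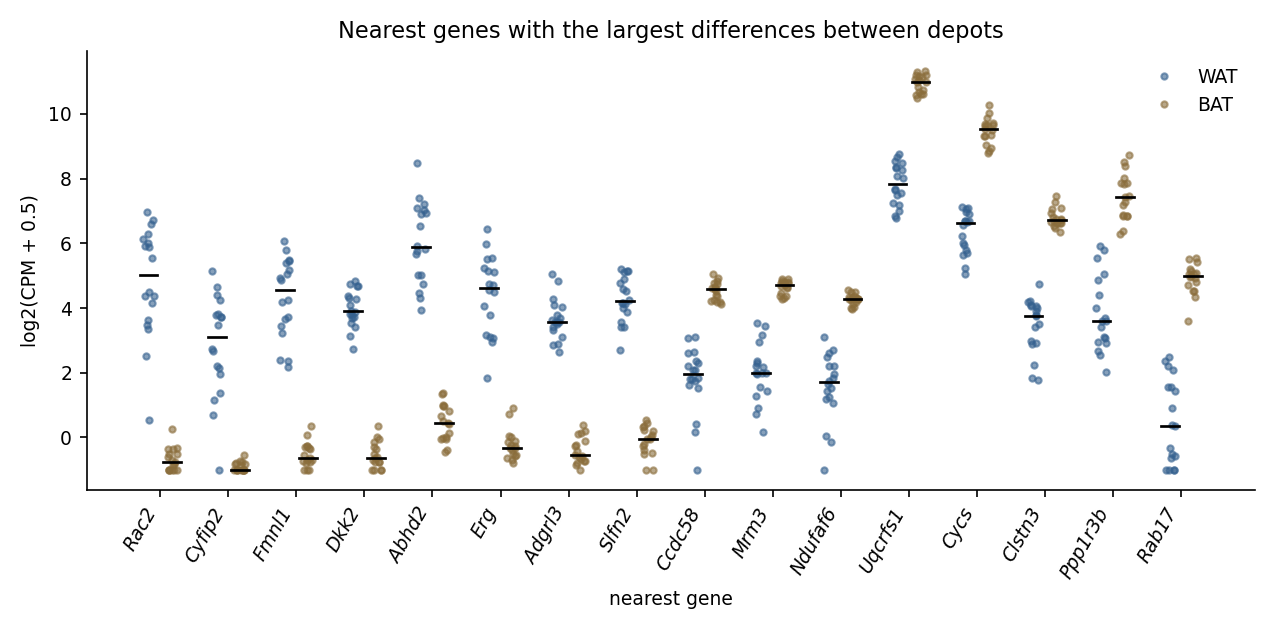
Points are RNA libraries of WAT (blue, 18) and BAT (brown, 17) on a log2(CPM + 0.5) axis, for the 8 nearest genes with the largest differences in each direction, and black bars are medians. Rac2 to Slfn2 on the left are higher in WAT and Ccdc58 to Rab17 on the right are higher in BAT, and the depots of Cyfip2 overlap.

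Genes of the clock and of adipocyte metabolism were looked up by list, where 1218 of all 55487 genes in the RNA table were nearest a member. Those 55487 include many genes with too few counts to test, whereas most listed genes passed the filter, so this share is not matched to the lists. Of the 12703 genes that passed in WAT, 728 were nearest a member. Whether a list had more members than matched genes was not tested. Of 20 core clock genes, Arntl and Hlf had a member, while 14 had a peak among the 500 highest. Hlf, a PAR bZIP factor gene, had its member in intron 2 of 3 with 8.91 and 9.23 tags, 136 bp from an ATAC peak, and 4 other BMAL1 peaks, and it was called in BAT (size 0.70 ± 0.18, edgeR adjusted p = 0.0429). Without TMM scaling, with replicate number as a block, and in 13 of 17 fits that left out a library, Hlf was not called. None of 15 lipogenesis genes had a member, and among 11 triglyceride synthesis genes only Gpam did. The lipolysis and lipid droplet list of 13 had 2. Pnpla2, the gene of adipose triglyceride lipase, had a member in intron 2 of 9 with 5.49 and 11.62 tags and was called in WAT (size 1.57 ± 0.36, peak at ZT11.1, edgeR adjusted p = 0.0197), though neither the fit without TMM scaling nor 5 of 18 fits without a library called it. Aqp7, the glycerol channel gene, was called in BAT (size 0.70 ± 0.15, peak at ZT5.95) and was higher in BAT than in WAT by 2.02 on the log2 scale.

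Members lay nearest the insulin signalling genes Insr (the insulin receptor), Irs2 and Pik3r1. Insr was higher in WAT, with a log2 difference of -1.56 ± 0.15, and Irs2 and Pik3r1 were called in none of the 3 comparisons. Of 13 adipocyte identity genes, Ebf2, Lpl and Cd36 had members. Lpl, the lipoprotein lipase gene, ran from 502 to 1054 CPM in BAT and from 1223 to 4763 CPM in WAT, with a difference of -1.64 ± 0.16. Ebf2 and Cd36 differed by 0.99 and -0.48 and did not reach 2-fold. Cpt1a, the 1 gene of 14 for fatty acid oxidation with a member, had it in intron 1 of 18 with 10.97 and 7.52 tags and was higher in WAT (-1.67 ± 0.25), whereas 12 of the 14 were higher in BAT. The member genes of the thermogenesis list of 17 were Atp2a2 and Ryr2. Atp2a2 was called in none of the 3 comparisons and Ryr2 did not pass the count filters.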

How the data were processed

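BMAL1 peaks came as the deposited HOMER annotation on mm10, and the authors scaled the signal in each library to 10000000 tags, and the table holds log2 of these values, as deposited. The peak score is the deposited score from both libraries. Reads were aligned with Bowtie2 2.4.1 for ChIP and STAR 2.7.5 for RNA, per the submitters' processing notes, and the settings are not given in the sources used here. The deposited RNA values are expected counts from RSEM 1.3.0, rounded here to whole numbers. The authors' JTK_CYCLE tables hold TPM and q-values, and 1 of their columns belongs to no listed sample and was not used. ATAC peaks came with counts that the authors deposited per library, used here for positions and depth. Overlap of at least 1 bp counted as open.

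Rhythm was fitted per depot with edgeR 4.0.16 (R 4.3.3; TMM scaling, a filter on low counts, glmQLFit, 24 h cosine and sine), with sizes as the log2 peak-to-trough of the fitted curve. Depots were compared over all 35 RNA libraries with time as a factor. P-values were adjusted over all genes tested. Alternatives included DESeq2 1.42.0, other scalings and filters, left-out libraries and other member definitions. Scripts were tested on simulated data. CPM of named genes are TMM-scaled, those of marker sums use total counts, and CPM in time courses and depot comparisons come from separate scalings. A peak of 13 tags carries large counting error, and intervals were not computed for each peak. The ChIP input has no values in the peak list used here.

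Named genes are the 10 highest-scoring members, the genes with most members, listed genes nearest a member, the 10 WAT and 8 BAT rhythm calls of smallest p, and the 8 largest depot differences each way among genes with a mean of at least 10 CPM in the higher depot. The members and gene lists were chosen with earlier results of these data known. Some listed genes are not reported here.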

Additional observations from a re-analysis of the deposited data

How the results depend on the processing

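Other definitions gave 1154 members (ATAC peaks widened by 250 bp) to 1863 (WAT ATAC peaks only), with 95.04% to 96.09% in introns or intergenic sequence, and 706 had a score at or above the set's median. Members' median scaled tags were 4.44 and 4.46 in single libraries, which is 13 tags in each and a weak check. Rhythm calls near members in WAT, 71, became 35 without TMM, 143 without a count filter, 131 with DESeq2, 135 without the 3 WAT libraries rich in ribosomal RNA reads (chosen after seeing the data) and 19 for members within 10 kb. The members' shares in these fits were 4.81%, 14.1%, 18%, 17.6% and 10.3%, against 6.16%, 11.5%, 16.6%, 19.7% and 9.9% of all genes. The WAT calls ranged from 25 to 130 when a library was left out. In BAT, 70 became 134 without TMM, 134 with DESeq2, 40 with time as a factor and 22 within 10 kb, with 35 to 159 when a library was left out. Those 4 shares were 20.5%, 20.5%, 6.13% and 13.3%, against 18.6%, 19.9%, 4.98% and 9.17% of all genes. The depot calls, 294, became 526 without a count filter, 474 at any fold and 73 within 10 kb, with 278 to 300 when a library was left out. Those 3 shares were 49.8%, 77.6% and 48.0%, against 39.6%, 75.2% and 47.3% of all genes. The cause of these shifts was not tested, except that the 10 kb limit keeps fewer genes. Leaving out a library moved the count by over 1.5 times for 11 of 18 WAT and 9 of 17 BAT libraries. WAT calls were highest without ZT9 replicate 3 (130) and lowest without ZT21 replicate 3 (25), and BAT calls were highest without ZT21 replicate 2 (159) and lowest without ZT1 replicate 3 or ZT13 replicate 3 (35 each). In the single-library refits the members' share stayed within 1.47 points of the background in WAT and within 2.89 points in BAT.

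The replicate block gave 72 WAT, 51 BAT and 294 depot calls, and with it Hlf was not called in BAT. Correlations of libraries with the same number ran from -0.47 to 0.44 in WAT (15 of 45 pairs over 0.1) and from -0.57 to 0.43 in BAT (18 of 40 pairs over 0.1), and since not every pair was over 0.1 the numbers were not taken as pairs. At 13 tags per library counting error is large, and 2-fold differences between BMAL1 libraries at single members were not tested against it. Over the set the variance between libraries was 1.45 times that of counting alone. The CACGTG share of all members was not run, because only RefSeq start-site windows could be read.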
